A study of Mus musculus with 2 samples.

Results

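Microtubule-associated proteins bind the microtubules of the cell skeleton, and 10 of their genes were followed in RNA of newborn mouse midbrain. The genes were Mapt, Map1a, Map1b, Map2, Map4, Dcx, Dclk1, Mapre1, Mapre2 and Mapre3. They were chosen by symbol, matched through the deposited gene identifiers, and all 10 were found among 43346 genes, with 71 transcripts between them. The material was midbrain of B6NCrl mice, a C57BL/6N line, at postnatal age 0 days, with no treatment or altered allele named and sex not recorded. Pup 1 and pup 3 each gave 1 library, made by SMART-type amplification of 13 pg of tissue RNA, an amount the labels equate with 1 cell. The labels place both pups under a single donor record and call the assay single-cell RNA-seq, but no cell was isolated. With both libraries in 1 group there was no condition to compare, and an exact two-sided test over 2 pups could not fall below p = 0.5.

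Neurons carry long parallel microtubules in axons and dendrites, and proteins bound along the lattice set how stable and how widely spaced they are. Tau (Mapt), MAP2 and MAP4 share a repeat domain that binds tubulin, and the number of repeats is set by splicing of a repeat exon. MAP1A and MAP1B are large proteins cut into heavy and light chains, with MAP1B typical of growing axons and MAP1A of mature neurons. Doublecortin (Dcx) and its relative Dclk1 act in migrating young neurons, and the end-binding proteins EB1, EB2 and EB3 (Mapre1, Mapre2, Mapre3) track growing microtubule ends. In rodent brain, fetal tau is known for short N-terminal ends, and early MAP2 for its short form, MAP2C.

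Exons of these genes are shown first, because several of the transcript results turn on them. MAP2 and MAP4 each have a repeat exon of 93 bases, read here from the GENCODE M21 transcripts on GRCm38 and written 5′ to 3′ on the plus strand. Capitals mark the 59 of 93 bases (63.4%) shared by both exons.
Map2, chr1:66431527-66431619: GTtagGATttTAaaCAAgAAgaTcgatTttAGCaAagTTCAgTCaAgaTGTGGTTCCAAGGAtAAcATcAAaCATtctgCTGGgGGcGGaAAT
Map4, chr9:110072613-110072705: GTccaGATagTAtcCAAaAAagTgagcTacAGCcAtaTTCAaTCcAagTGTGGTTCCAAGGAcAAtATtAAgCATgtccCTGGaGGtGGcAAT
In both genes this exon is followed by coding exons of 82 and 113 bases, which matched at 61.0% and 72.6% of bases. No Map4 transcript in the files skips the 93-base exon, so it separates forms of Map2 only.

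The N-terminal inserts of tau come from a pair of exons of 87 bases each, and a further exon of 54 bases lies before the repeats. All lie on the plus strand.
Mapt first insert, chr11:104287123-104287209: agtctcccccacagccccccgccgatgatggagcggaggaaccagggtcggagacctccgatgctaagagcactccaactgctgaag
Mapt second insert, chr11:104289908-104289994: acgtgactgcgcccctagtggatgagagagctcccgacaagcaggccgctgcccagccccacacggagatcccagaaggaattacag
Mapt 54-base exon, chr11:104307881-104307934: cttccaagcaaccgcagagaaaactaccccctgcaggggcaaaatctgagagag
In Dcx, on the minus strand, 1 annotated form ends a 138-base exon 15 bases early, and capitals mark the bases it lacks.
Dcx, chrX:143875755-143875892: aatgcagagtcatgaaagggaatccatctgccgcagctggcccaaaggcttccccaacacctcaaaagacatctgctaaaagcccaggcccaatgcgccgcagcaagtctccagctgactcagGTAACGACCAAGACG

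The libraries held 26583225 (pup 1) and 33142647 (pup 3) expected counts, that is reads after those matching several features were divided. The 10 genes took 1.13% and 1.15% of the counts on genes. Neuron markers were detected, at 1 TPM or more, in both pups for 8 of 8 genes and hindbrain Hox markers for 0 of 5. Radial glia and astrocyte markers were in both pups for 6 of 7 genes, meningeal for 5 of 5 and erythroid for 4 of 4. Other lists were less steady: oligodendrocyte lineage markers were in both for 4 of 8 genes, microglial for 3 of 6 and endothelial for 1 of 5. Of these, 5, 1 and 2 were over 4-fold apart, as were 1 meningeal gene and 0 of the neuron, radial glia and astrocyte, and erythroid genes. Among all protein coding genes with a count, 56.8% were detected in both pups and 43.9% were over 4-fold apart. Such calls were thus common in these libraries and are not particular to a cell type. Of 7 midbrain markers, 3 (Th, Gata3 and Pou4f1) were detected in both, and 3 others (En1, Otx2 and Pax7) were over 4-fold apart. Summed neuron markers stood at 9078 TPM in pup 1 and 5263 in pup 3. The gap in the sum came from Tubb3 (5927 and 1794), and the other 7 summed to 3151 and 3469. Gene by gene, only 3 of those 7 were higher in pup 3. The median log2 ratio of pup 3 over pup 1 for all 8 was -0.44. Meningeal sums were 2890 and 3947 TPM and erythroid sums 1703 and 2860. Of 4 markers of dividing cells, 1 was in both pups, and 3 were over 4-fold apart, with Cdk1 at 44.9 and 0.84 TPM and Ccnb1 at 0.06 and 69.1. The part of these markers in the results below was not tested. In RNA of whole tissue, fewer cells of a type and less RNA per cell cannot be told apart.

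All 10 genes were detected in both pups, and all at 10 TPM or more. Levels are given as TPM, which divides counts by transcript length so that genes can be compared, in each pup and as mean ± SD over n = 2 pups. They ran from 898 ± 45.3 for Mapt to 39.2 ± 4.53 for Mapre3. The deposited table also gives an interval for each posterior mean TPM, and the TPM itself may lie just outside it.

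**Figure D1:**
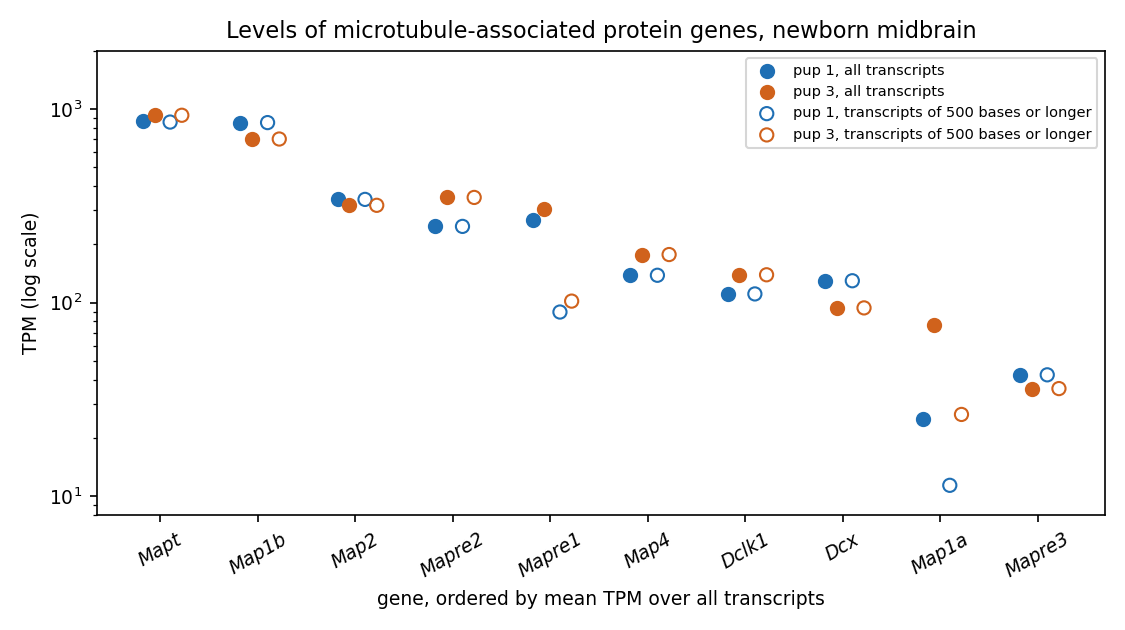
TPM (log axis) of the 10 genes in pup 1 (blue) and pup 3 (orange), from all transcripts (filled) and from transcripts of 500 bases or longer (open). The gene values of Mapre1 and Map1a fall when short transcripts are left out, to means of 95.7 and 18.9 TPM, the first by more than 1 SD between pups and the second by less.

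Mapt, the gene of tau (ENSMUSG00000018411.13, GRCm38 chromosome 11, 104231390 to 104332090), stood at 866 TPM in pup 1 and 930.4 TPM in pup 3. Its deposited intervals were 825 to 855 and 898 to 922. It ranked 130th and 124th among all genes by TPM. Both pups were close, with the count ratio of pup 3 over pup 1 at 1.12 after scaling by the gene totals (exact 95% interval 1.11 to 1.14). Such intervals cover counting error only, since amplified reads are not independent molecules.

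Of 12 Mapt transcripts, 3 held 10% or more of the gene. Mapt-204 (ENSMUST00000106992.5, 5253 bases), which lacks both N-terminal inserts and carries a last exon of 4119 bases, held 42.2% of Mapt TPM in pup 1 and 36.2% in pup 3. Mapt-205 (1527 bases), which also lacks the inserts but has the 54-base exon, held 33.0% and 41.5%. Mapt-201 (1362 bases), the form with both inserts, held 15.9% and 14.3%. Among the annotated forms, those without inserts were thus the larger part in either pup, and the order of the leading pair differed between pups. In counts, Mapt-204 led in both, with 30729 of 40875 and 39509 of 57085.

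By exon, the first 87-base insert was on 16.3% and 15.5% of the Mapt TPM that contained or skipped it, a mean of 15.9% ± 0.552. The second insert stood at 16.2% and 15.4%. In counts these were 6.96% and 6.83% for the first. The 54-base exon was on 36.2% and 45.2% of TPM, and on 16.5% and 22.5% of counts. It occurs in Mapt-205 alone, whose last exon of 464 bases is much shorter than that of Mapt-204, so the exon and the short 3′ end cannot be told apart in these tables. The same limit holds for the inserts. Of the counts on forms with the first insert, 2828 of 2831 and 3816 of 3825 lay on Mapt-201, with a last exon of 248 bases. No annotated form joins an insert to the long 3′ end of Mapt-204. The long exons of big tau, 711 and 759 bases, the form of peripheral nerves, had 0 counts in both pups.

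Map2 (ENSMUSG00000015222.13, chromosome 1, 66175273 to 66442583), a protein of dendrites and cell bodies, stood at 342 TPM in pup 1 and 318 TPM in pup 3, a mean of 329.9 ± 16.4. Its count ratio of pup 3 over pup 1 was 0.707 (interval 0.694 to 0.721), lower than the TPM ratio because the mean transcript length assigned to the gene was 4383 bases in pup 1 and 2995 in pup 3. The antisense gene Gm10558, with 282 and 326 counts, overlaps a Map2 exon, and how counting used strand is not given in the sources used here.

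Map2 had the most transcripts, 24, of which 6 reached 10% in a pup and 11 had 0 counts in both. The exon of 3741 bases that makes the long forms MAP2A and MAP2B was on 18.5% and 27.1% of the Map2 TPM that contained or skipped it. In counts this was 21.3% and 30.7%, so by either measure most of this RNA was assigned to forms that skip the exon. The 6 full-length coding transcripts without it, which encode MAP2C or, with the 93-base exon, MAP2D, held 55.9% and 32.1% of all Map2 TPM and 67.3% and 57.2% of counts. Map2-204, the form in the files with that exon whole and internal, held 12.7% and 11.9% of TPM and 4341 and 5326 counts. Its last exon has 397 bases, against 3790 in Map2-201, which skips the exon. No annotated form joins the whole long exon to that long 3′ end, so the exon and the short 3′ end cannot be told apart in these tables.

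Among its short forms, Map2 has annotated transcripts with and without the repeat exon, so the choice was readable there. Map2-204, with the exon of 3741 bases, is annotated without the repeat exon, and no whole form in the files carries both. For the long forms the choice was therefore set by the annotation. The 93-base exon printed above was on 3.88% of TPM in pup 1 and 0.388% in pup 3. The counts behind this, 771 and 75, were given to the whole of Map2-207 (5303 bases) and are not reads on the exon itself. Forms annotated without it, with 3 repeats, thus held most of the TPM that contained or skipped it in both pups, Map2-204 included. From the deposited posterior means the shares were 3.81% and 1.715%, so the low value of pup 3 depends on the estimate used.

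By TPM, Map2-201 led in pup 1 (39.5% and 22.4%) and Map2-218 in pup 3 (11.9% and 27.4%). Map2-218 is 546 bases long with 106 coding bases at the start of the gene, and in counts it was 1.24% and 4.23%. Map2-201 led in counts in both pups, at 47.1% and 39.5%. Among noncoding forms, the retained-intron transcript Map2-212 held 11.1% and 6.17% of TPM, and Map2-213 0% and 10.2%.

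**Figure D2:**
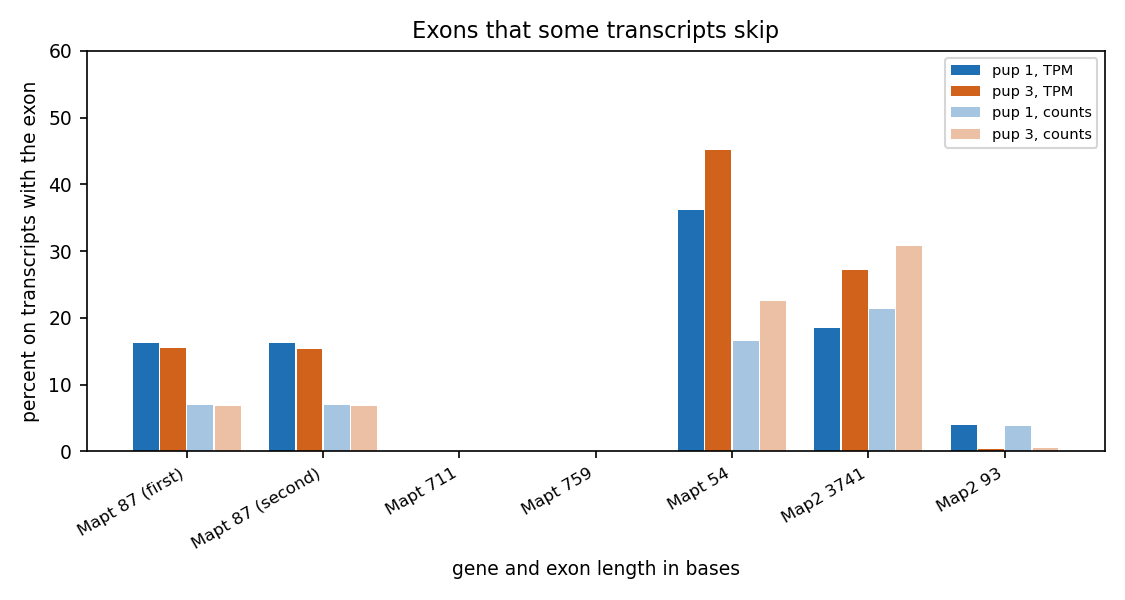
Percent of TPM (dark bars) and of counts (pale bars) on transcripts that contain an exon, of those that contain or skip it, in pup 1 (blue) and pup 3 (orange). The Mapt inserts of 87 bases stay near 16% of TPM, the big tau exons are at 0, and the Map2 exon of 3741 bases reaches 18.5% and 27.1% of TPM.

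Map4 (ENSMUSG00000032479.11, chromosome 9, 109931460 to 110083955), the relative expressed in most cell types, stood at 139 TPM in pup 1 and 177 TPM in pup 3, a mean of 158 ± 27.4. Pup 3 was higher in both TPM and counts, with a count ratio of 1.37 (interval 1.33 to 1.40). Of its 4 transcripts, Map4-206 held 75.7% and 76.5% of TPM and 65.4% and 69.6% of counts. This form has the first coding exons, then a last exon of 2994 bases, and only 297 coding bases, so it ends before the repeat domain. The forms that hold the 93-base repeat exon differed between pups: Map4-205 stood at 18.4% and 1.16%, and Map4-204, which starts inside the gene, at 5.95% and 22.3%. The files give these Map4 transcripts other lengths than M21 does (3517 against 3446 bases for Map4-206), so their structures are approximate. M21 lists 17 Map4 transcripts.

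Map1b (ENSMUSG00000052727.5, chromosome 13, 99421446 to 99516540) stood at 851 TPM in pup 1 and 700.25 TPM in pup 3, a mean of 776 ± 107. It took the most counts of the 10 genes, 163040 and 187461, on a transcript of 11852 bases. The files hold 1 Map1b transcript, so no form could be compared. Its count ratio was 0.924 (interval 0.918 to 0.930).

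Map1a (ENSMUSG00000027254.9, chromosome 2, 121289600 to 121310832) stood at 25.1 TPM in pup 1 and 76.7 TPM in pup 3, a mean of 50.9 ± 36.5. It had the widest gap between pups of the 10 genes, at 2249 and 6967 counts and a ratio of 2.49 (interval 2.37 to 2.61). Much of its TPM came from Map1a-204, a noncoding transcript of 411 bases, with 54.6% and 65.5% of TPM but 70 and 357 counts, or 3.10% and 5.13%. Without transcripts under 500 bases Map1a read 11.4 and 26.5 TPM. The full form Map1a-201 held 2179 counts in pup 1 and 3834 in pup 3, and Map1a-202, which starts at a later first exon, held 0 and 2776.

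The log2 ratio of Map1b over Map1a, from TPM + 1, was 5.03 in pup 1 and 3.17 in pup 3. Map1b was the higher in both pups, and leaving out the short transcripts raised the mean ratio from 4.10 to 5.39.

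Dcx (ENSMUSG00000031285.10, chromosome X, 143855842 to 143933311), the marker of migrating and young neurons, stood at 129.8 TPM in pup 1 and 94.0 TPM in pup 3, a mean of 112 ± 25.3. Dcx-201 (9074 bases, with a last exon of 7766) held 73.5% and 68.2% of TPM and 92.0% and 91.9% of counts. It thus led in both pups by either measure. Dcx-204, the form without the 15 bases in capitals above, held 7.60% and 23.8% of TPM but 198 and 628 counts. Its last exon has only 135 bases, so the loss of the 15 bases and the short 3′ end cannot be told apart here. A retained-intron form, Dcx-206, had 988 counts in pup 1 and 0 in pup 3, or 18.5% and 0% of TPM. On transcripts not classed as noncoding Dcx stood at 105.8 TPM in pup 1 and 93.99 TPM in pup 3, so the pups were closer.

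Dclk1 (ENSMUSG00000027797.11, chromosome 3, 55242364 to 55539068), which joins a doublecortin domain to a protein kinase domain, stood at 111 TPM in pup 1 and 139 TPM in pup 3, a mean of 125 ± 20.1. Dclk1-201 codes for both parts and held 38.0% and 66.9%. Dclk1-203, a short form that has the first coding exon but not the last and so lacks the kinase end, held 37.0% and 30.3%. Dclk1-202, which has the last coding exon but not the first, held 25.04% and 2.77%. Forms with the first coding exon, in the doublecortin part, thus made up 75.0% in pup 1 and 97.2% in pup 3. In counts, too, Dclk1-202 was lower in pup 3, at 3131 and 607. M21 lists 15 Dclk1 transcripts, against 3 in the files.

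Between Dcx and Dclk1 the order changed with the pup. Over all transcripts the log2 ratio of TPM + 1 was 0.22 in pup 1 and -0.56 in pup 3, so no direction was given. On transcripts not classed as noncoding it was -0.07 and -0.56, with Dclk1 the higher in both pups by sign alone. Dcx was below Map2 in both pups, with ratios of -1.39 and -1.75 over all transcripts.

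Among the end-binding genes, Mapre2, which encodes EB2 (ENSMUSG00000024277.10), stood at 248 TPM in pup 1 and 349.6 TPM in pup 3, a mean of 299 ± 72.0. Its main form Mapre2-201 (4026 bases) held 97.5% and 78.9% of TPM and 98.6% and 93.6% of counts. The remainder in pup 3 was mostly the retained-intron form Mapre2-205, at 0.10% and 15.1% of TPM. On transcripts not classed as noncoding, Mapre2 read 245 and 277 TPM, so the pups were closer.

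Mapre1, which encodes the widely expressed EB1 (ENSMUSG00000027479.10, chromosome 2, 153741274 to 153773310), stood at 267 TPM in pup 1 and 303 TPM in pup 3, a mean of 285 ± 25.9. Of this, 66.4% in pup 1 and 66.4% in pup 3 lay on Mapre1-203, a noncoding transcript of 483 bases. That transcript held 1108 and 1761 counts, or 9.52% and 9.49%. The coding form Mapre1-201, of 7336 bases, held 89.3 and 102 TPM and 90.5% of counts in both pups.

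Mapre3, which encodes EB3, the form rich in neurons (ENSMUSG00000029166.10, chromosome 5, 30814641 to 30866106), stood at 42.4 TPM in pup 1 and 36.01 TPM in pup 3, a mean of 39.2 ± 4.53. It had the fewest counts of the 10 genes, 1228 and 1431. Its leading transcript, ENSMUST00000114724.3 (1816 bases), held 71.3% and 85.7% and has no entry in M21. Mapre3-201 held 28.5% and 14.1%.

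Mapre3 was below Mapre1 by a log2 ratio of -2.62 in pup 1 and -3.04 in pup 3, and below Mapre2 by -2.52 and -3.24. The first gap narrowed to a mean of -1.27 when transcripts under 500 bases were left out. Mapre2 over Mapre1 was -0.11 and 0.20 with all transcripts, with no direction, and 1.46 and 1.77 without the short ones, with Mapre2 higher in both pups.

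**Figure D3:**
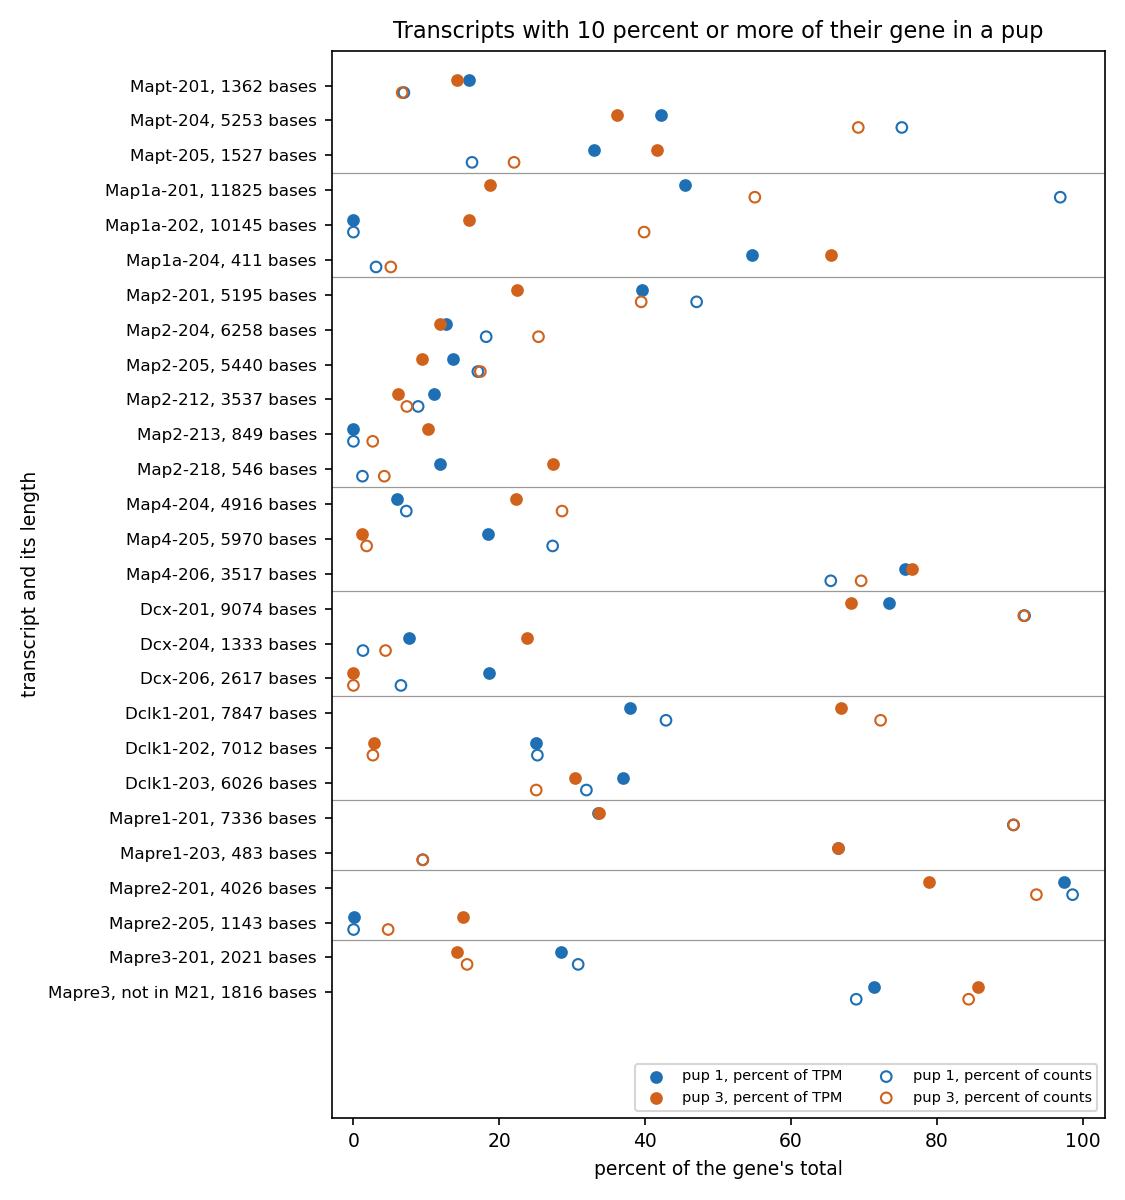
Share of each gene's TPM (filled) and counts (open) on the transcripts with 10% or more of the TPM in pup 1 (blue) or pup 3 (orange), with transcript length. Map1b, with 1 transcript, is left out. Short forms such as Mapre1-203 and Map1a-204 hold over 50% of TPM in both pups and under 10% of counts.

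By mean TPM the order was Mapt, Map1b, Map2, Mapre2, Mapre1, Map4, Dclk1, Dcx, Map1a and Mapre3. Of the 9 neighbouring steps, 4 stood apart, meaning that the pups' values did not overlap: Mapt over Map1b, Map1b over Map2, Mapre1 over Map4, and Dcx over Map1a. The gap between Mapt and Map1b was narrow, with the lower Mapt value at 866 TPM and the higher Map1b value at 851. Map2, Mapre2 and Mapre1 overlapped from step to step, as did Map4, Dclk1 and Dcx, and also Map1a and Mapre3. Without transcripts under 500 bases Mapre1 fell from the fifth place to the eighth. In that setting Mapre3 also stood above Map1a with the pups apart, at 42.4 and 36.0 TPM against 11.4 and 26.5.

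Of the 9 gene pairs compared within each library, 7 had the same direction in both pups with deposited intervals that did not overlap. Besides those above, Mapt exceeded Map2 by a log2 ratio of 1.34 and 1.54, Map2 exceeded Map4 by 1.30 and 0.84, and Mapt exceeded Map4 by 2.64 and 2.39. Protein coding genes whose level over the 2 libraries was nearest to Mapt, by distance of log2(TPM + 1), were Prdx2 (902 and 917 TPM) and Ndufb8 (817 and 943). The nearest to Map1b were Hnrnpk (816 and 695) and Rab3a (817 and 711), and to Map2 Wbp2 (350.01 and 327) and Dstn (338 and 304). Likeness over 2 libraries is likeness of level only.

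Between the libraries, 0 of the 10 genes were over 4-fold apart, taken as the whole exact 95% interval of the count ratio lying beyond 4-fold. By that rule 41.0% of the 14605 genes with a count in either library were called, and 4.02% of the 1667 with a mean of 100 TPM or more. Of the 10 genes, 8 lie at that level (all but Map1a and Mapre3), so a count of 0 is close to its background. The median size of the log2 TPM ratio was 0.30 for the 10 genes, 0.59 at a mean of 100 TPM or more and 1.14 over all genes with a count. In sign, 6 of the 10 were higher in pup 3, near the 53.5% of genes with a mean of 100 TPM or more and the 47.6% of all genes with a count. These are comparisons of 2 libraries with no replicate check.

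**Figure D4:**
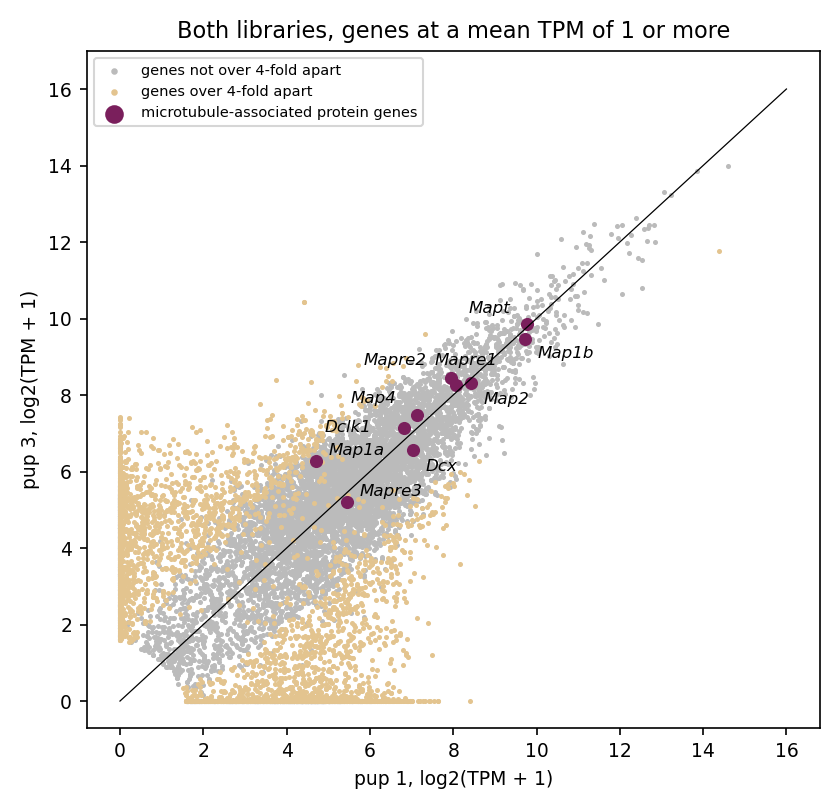
log2(TPM + 1) of each gene with a mean of 1 TPM or more, in pup 1 (x axis) and pup 3 (y axis), with genes over 4-fold apart in tan, other genes in grey and the 10 microtubule-associated protein genes in purple. The 10 lie along the line of equal level, with Map1a (25.1 and 76.7 TPM) farthest from it.

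Among the 10, 9 genes had 2 or more transcripts and reached 50 counts in both libraries, and 7 of the 9 kept the same leading transcript by TPM, and Mapt and Map2 did not. Over all 5311 such genes 62.8% kept it, and 82.0% of the 1247 with a mean of 100 TPM or more, so 7 of 9 is close to the background at this level. By counts all 9 kept their leader, against 69.1% of all such genes and 86.0% of those with a mean of 100 TPM or more. The leaders differed between the measures for Map1a and Mapre1 in both pups, where the noncoding short forms led by TPM and the long coding forms by counts. Of the 71 transcripts, 28 held 10% or more of their gene in a pup and 21 had 0 counts in both.

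The 10 genes stood among 71 other microtubule genes in 5 lists, of which 64 had a count. In both pups 49 of these were detected, or 76.6%, against 56.8% of protein coding genes with a count. Of the 64, 19 were over 4-fold apart, or 29.7%, against 43.9% of those genes. Of 17 other structural proteins, 11 were in both, led by Map1lc3b (564 ± 39.0 TPM) and Map1lc3a (177 ± 80.2), light chains best known from autophagy, and Map9 (106 ± 44.1). Map6d1, Map7d3 and Tppp had 0 counts. Of 22 proteins of microtubule ends, 16 were in both, led by Clip3 (191 ± 14.98), the polymerase Ckap5 (124 ± 33.3) and the dynactin subunit Dctn1 (87.2 ± 19.5).

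Of 20 kinases and phosphatase subunits that act on these proteins, 17 were in both pups. Ppp2r2b, a phosphatase subunit, stood at 166 ± 26.7 TPM, the tau kinase Gsk3b at 139 ± 33.9 and Mapk10 at 100.3 ± 9.07, and Ttbk1 had 0 counts. Of 6 severing enzymes, 3 were in both, among them Katnal1 at 26.7 and 82.3 TPM, whereas Katna1 read 30.1 and 0.08 and Fignl1 had 0 counts. Of 6 mitotic proteins, 2 were in both, Prc1 (17.3 ± 3.05) and Numa1 (13.9 ± 8.24). Numa1, at 371 counts in pup 1 and 3162 in pup 3, was over 4-fold apart. Kif11 read 0 and 8.36, and Tpx2 and Nusap1 had 0 counts.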

How the data were processed

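Amplified RNA-seq of midbrain RNA gave 1 gene table and 1 transcript table per pup. The genome was mm10 and the annotation GENCODE M4, per the notes deposited with the tables. Not given in the sources used here were aligner, counting program, versions and strand setting. The authors deposited expected counts, which divide reads matching several features; these were rounded for exact (Clopper-Pearson) intervals of count ratios. Deposited TPM are counts over effective length, scaled over all rows of a table; deposited FPKM served as an alternative. The deposited percent of a gene's TPM on each transcript gave the transcript shares. Length, effective length and posterior SD columns are deposited signal values.

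Exon shares were summed from transcripts by GENCODE M21 structures (GRCm38, the assembly of mm10), matched by identifier for 67 of 71 transcripts, 61 with equal length; classes are from M21. Symbols were found for 42462 of 43346 genes. Named were all members, transcripts at 10% or more, and the 3 highest genes and those at 0 per list, with 2 nearest genes for each of the 3 highest members. A few items that this rule names are not reported here. Members and lists were chosen with earlier results of these data known. Alternatives were other scalings (edgeR 4.0.16 and DESeq2 1.42.0 in R 4.3.3, scaling factors only), pseudocounts, thresholds, measures and leaving out a pup. Python 3.11.15, numpy 2.4.6, pandas 2.3.3, scipy 1.17.1 and matplotlib 3.10.9 were used, and the 4-fold rule and leader count were tested on simulated data. The simulated counts carried counting error only, without the noise of amplification, so they check the code and not the libraries.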

Additional observations from a re-analysis of the deposited data

How the results depend on the processing

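All 10 genes were detected in both pups and 0 were over 4-fold apart under each alternative run for those counts, and 7 gene pairs had a direction under each alternative with deposited intervals. The settings without short or noncoding transcripts have no such intervals, and by sign alone 8 and 9 pairs had the same direction in both pups. The order of levels depended on the measure. With 10 genes in place by mean TPM, 4 kept their place by expected counts not divided by length, 4 on transcripts of 500 bases or longer and 4 on transcripts not classed as noncoding. These last settings, by transcript length and class, were chosen after seeing the data. Leaving out a pup left 4 to 8 in place: 4 without pup 3, the second replicate, and 8 without pup 1. The genes with the same leading transcript numbered 6 of 8 on transcripts not classed as noncoding, 7 of 9 on those of 500 bases or longer and 9 of 9 by counts. Taken from counts in place of TPM, the shares of 16 of 28 transcripts moved by more than 1 SD. Genes over 4-fold apart in the whole table numbered 5982, from 5954 with posterior mean counts to 7916 with a plain TPM ratio of 4. No paired analysis was possible because both libraries form 1 group. The effect of depth was not tested. The levels of these genes rest on 1228 counts or more of amplified reads. The share of the Map2 repeat exon in pup 3 rests on 75 counts given to the whole of Map2-207.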
